A study of Mus musculus with 2 samples.

Results

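The genes examined here were 10 mouse genes of the integrated stress response and the unfolded protein response, taken by name from the deposited gene and transcript tables of a brain inflammation study. These were the transcription factor genes Atf3, Atf4, Atf5, Atf6, Xbp1 and Ddit3, the sensor genes Ern1 and Eif2ak3, and the phosphatase subunit genes Ppp1r15a and Ppp1r15b. All 10 were among the 13381 protein-coding genes listed, and all 10 reached 1 FPKM in at least 1 library. FPKM is the number of sequenced fragments scaled by transcript length and by the size of the library, so that levels of different genes can be compared. FPKM belongs to sequencing, although a chip array is the method that the study describes, and the sources used here do not resolve this.

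RNA of brain tissue was measured in 2 libraries, 1 titled miR-7KD (animal 3) and 1 titled WT (animal 7), from C57BL/6J mice labelled 6 to 8 weeks old. By the study's methods, both came from a model in which lipopolysaccharide, a bacterial outer membrane component that triggers inflammation, is injected into wild-type mice and mice deficient in the microRNA miR-7. The labels name neither lipopolysaccharide nor an untreated sample. The study's methods give an older age range for the mice than the labels do. For its expression profile the study describes lipopolysaccharide injection of both kinds of mice, so both libraries are taken as inflamed brain. An unstressed level is then not part of the comparison. Neither the way the deficiency was made nor the cells that carry it are stated in the sources used here, and whether RNA of several animals was pooled is not stated. The genotype fields run against the titles, since the sample titled miR-7KD carries the wild-type field and the sample titled WT the miR-7 KD field. They are therefore called the KD-titled and the WT-titled library, and a ratio is always the value of the first over that of the second. With 1 library per title there was no replicate check and no test, and the differences compare these libraries only.

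Cells under stress lower the rate of protein synthesis by phosphorylating the translation initiation factor eIF2α. The kinase PERK, the product of Eif2ak3, does so when unfolded proteins gather in the endoplasmic reticulum (ER), and 3 related kinases answer to other stresses. Most mRNAs are then translated less, whereas the mRNA of the transcription factor ATF4 is translated more, and ATF4 turns on genes of amino acid supply, CHOP (the product of Ddit3) and the phosphatase subunit GADD34 (the product of Ppp1r15a), which reverses the phosphorylation. Beside PERK, the ER holds the sensors IRE1 (Ern1), which splices the mRNA of Xbp1, and ATF6, which is cut in the Golgi to release a transcription factor. Much of this response therefore runs through translation, splicing and protein cleavage, which mRNA levels do not show.

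Atf4 and Ppp1r15b, which encodes CReP, the constitutive counterpart of GADD34, were the members with the largest differences, and both were lower in the KD-titled library. Atf4 was at 17.0 FPKM in the KD-titled library and 68.4 FPKM in the WT-titled library. Ppp1r15b was at 2.11 FPKM in the KD-titled library and 12.7 FPKM in the WT-titled library. The sensor gene Ern1 lay just past 2-fold, also on the lower side, and the other 7 members differed by less than 2-fold.

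A gene was taken as different when the log2 ratio, with 0.1 FPKM added to each value, was at least 1 in size, in genes whose level reached 1 FPKM in either library. By this rule 0 of the 10 members were higher and 3 were lower in the KD-titled library. Of all 11969 genes at this level, 6.01% were higher and 5.58% were lower. The median log2 ratio was -0.32 over the 10 members and -0.01 over all genes, with 8 members below 0 and 2 above. Summed over the 10 members, the level was 64.0 FPKM in the KD-titled library and 131 FPKM in the WT-titled library, and without Atf4 it was 47.1 FPKM in the KD-titled and 63.0 FPKM in the WT-titled library. In bulk tissue, fewer cells of a type and less RNA per cell cannot be told apart.

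**Figure D1:**
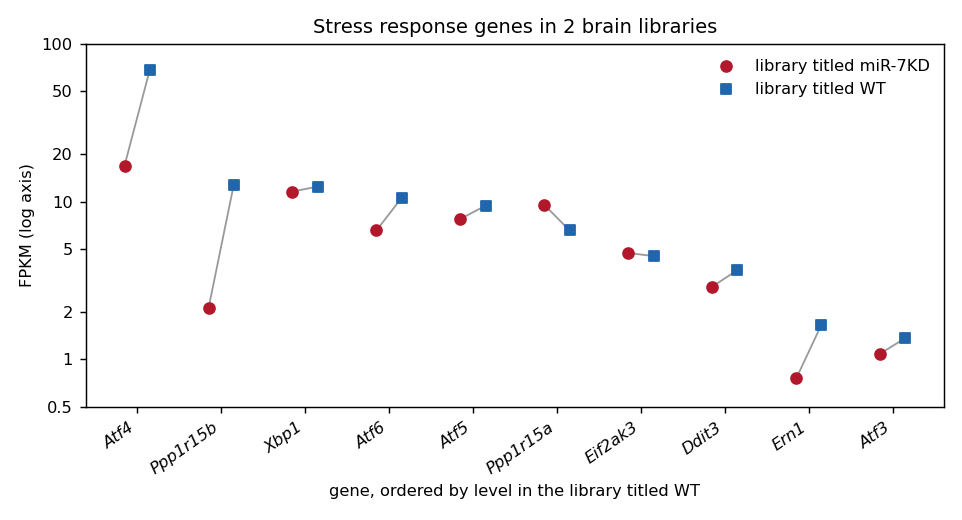
FPKM (log axis) of the 10 members in the KD-titled library (red circles, left of each pair) and the WT-titled library (blue squares, right), with genes ordered by level in the WT-titled library. Atf4 was at 17.0 and 68.4 FPKM and Ppp1r15b at 2.11 and 12.7 FPKM, while the lines of Xbp1 and Eif2ak3 are almost level.

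By gene values, the order of the members was not the same in both libraries. Atf4 ranked first of the 10 in either library. Ppp1r15b ranked 8 in the KD-titled library and 2 in the WT-titled library, whereas Ppp1r15a ranked 3 in the KD-titled library and 6 in the WT-titled library. Atf3 and Ern1, at 9 and 10 in the KD-titled library and at 10 and 9 in the WT-titled library, had the lowest levels. Without replicates, it is not known which neighbours in this order differ beyond the spread between animals. With listed transcripts summed instead of gene values, Xbp1 (17.8 FPKM) ranked above Atf4 (17.0 FPKM) in the KD-titled library.

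**Figure D2:**
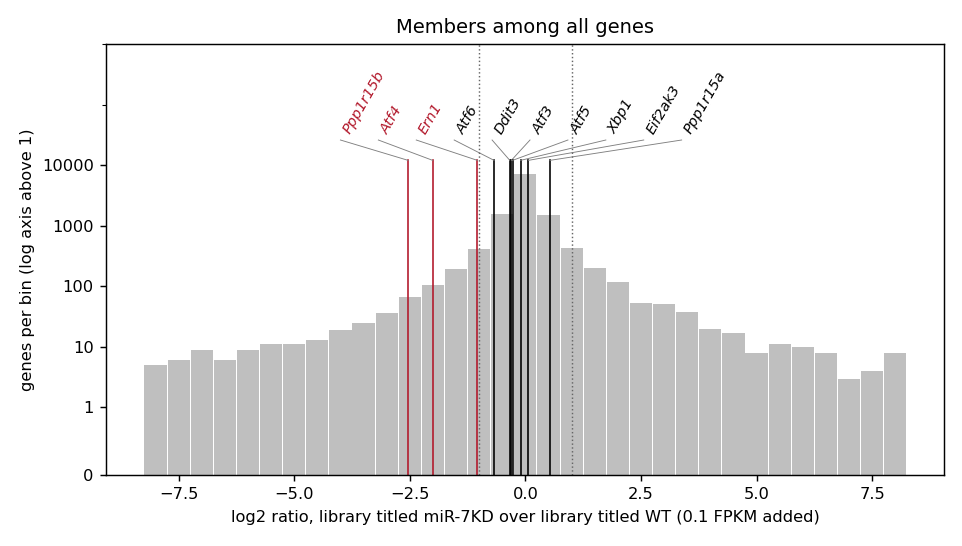
Number of genes per bin of log2 ratio (KD-titled over WT-titled library, 0.1 FPKM added) for all 11969 genes at 1 FPKM or more, with a logarithmic count axis above 1 and lines at the 10 members. Ppp1r15b (-2.54), Atf4 (-2.01) and Ern1 (-1.04), in red, lie beyond the dotted line at -1, and the other members, in black, lie between -0.68 and 0.53.

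Among the transcription factors of the eIF2α arm, Atf4 (ENSMUSG00000042406.7, chromosome 15 from 80255184 to 80257540, forward strand, GRCm38) had the highest level. Its log2 ratio was -2.01, a level 4.03-fold lower in the KD-titled library than in the WT-titled library, and 2.15% of all genes had a lower ratio. In the WT-titled library its level was above that of 97.3% of listed genes, and in the KD-titled library above that of 84.0%. The table listed 1 transcript of Atf4, with 3 exons, at the values of the gene. An unannotated transcript of 1 exon on the opposite strand, over the last part of the gene from 80257014 to 80257538, was at 0.428 FPKM in the KD-titled library and 1.35 FPKM in the WT-titled library. The sources used here do not say whether the libraries kept strand, so reads of Atf4 and of this transcript may not have been separated.

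The promoters of Atf4, Atf3 and Ppp1r15a are shown because the first belongs to the member with the largest difference in FPKM and the others hold letters bound by ATF4 and related factors. Each line gives the 250 bases before the RefSeq start site (GRCm38.p6), read 5′ to 3′ on the gene's strand, with matches in capitals. The Atf4 window is chr15:80254934-80255183 on the forward strand, the Atf3 window chr1:191183334-191183583 on the reverse strand, and the Ppp1r15a window chr7:45526269-45526518 on the reverse strand.
Atf4: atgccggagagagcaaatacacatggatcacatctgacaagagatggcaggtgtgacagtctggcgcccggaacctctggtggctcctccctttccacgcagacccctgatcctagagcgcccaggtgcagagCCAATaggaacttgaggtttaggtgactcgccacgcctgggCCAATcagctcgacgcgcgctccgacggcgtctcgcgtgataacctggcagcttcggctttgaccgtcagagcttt
Atf3: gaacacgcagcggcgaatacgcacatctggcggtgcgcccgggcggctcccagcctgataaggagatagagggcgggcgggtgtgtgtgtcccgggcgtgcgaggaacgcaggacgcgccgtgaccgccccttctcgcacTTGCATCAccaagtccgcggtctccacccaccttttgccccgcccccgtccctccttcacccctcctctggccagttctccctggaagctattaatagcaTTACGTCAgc
Ppp1r15a: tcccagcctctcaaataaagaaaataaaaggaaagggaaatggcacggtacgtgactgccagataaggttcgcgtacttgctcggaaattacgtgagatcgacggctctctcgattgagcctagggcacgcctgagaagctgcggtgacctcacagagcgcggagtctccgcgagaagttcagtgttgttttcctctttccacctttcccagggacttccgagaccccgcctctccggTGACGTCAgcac

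Both strands were searched for TTGCATCA (the core of the composite element of ATF4 and C/EBP factors), TGACGTCA (the cAMP response element, CRE), its variant TTACGTCA, TGACGTGG (the core of the unfolded protein response element), the ER stress response element (CCAAT, 9 bases of any kind and CCACG) and the CCAAT box alone. The CRE and the unfolded protein response core share TGACGT, and the ER stress response element holds a CCAAT box. TTGCATCA was found in 0.791% of 32851 promoters of this length, TGACGTCA in 1.55%, TTACGTCA in 0.447%, TGACGTGG in 0.563%, the ER stress response element in 0.113% and CCAAT in 33.8%. Of 8 members with a promoter in the table, Atf3 held TTGCATCA from 110 to 103 bases before the start and TTACGTCA from 10 to 3 bases before it. Ppp1r15a held TGACGTCA from 12 to 5 bases before the start. CCAAT was found in 4 of the 8 members, at 117 to 113 and at 76 to 72 bases before the start in Atf4, at 192 to 188 bases before the downstream start of Atf5, at 77 to 73 bases before the start in Ddit3 and 6 times in Eif2ak3. Ern1 and Xbp1 held none of these letters. These matches describe letters, not bound sites. Atf6 and Ppp1r15b had no entry.

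Atf5, which encodes a related factor whose translation is also raised under stress, was at 7.78 FPKM in the KD-titled library and 9.44 FPKM in the WT-titled library. Its log2 ratio was -0.28. The main transcript Atf5-001 was at 7.77 FPKM in the KD-titled library and 8.70 FPKM in the WT-titled library. The minor transcript Atf5-002, which starts further downstream, was at 0.753 and 1.62 FPKM in these libraries, a log2 ratio of -1.01.

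Ddit3, whose product CHOP promotes cell death under lasting ER stress, was at 2.90 FPKM in the KD-titled library and 3.69 FPKM in the WT-titled library, with a log2 ratio of -0.34. By gene values, the ratio of Atf4 to Ddit3 within a library was 5.85 in the KD-titled library and 18.5 in the WT-titled library. The gene values of Ddit3 lay below those of its listed transcript, whereas those of Atf4 equalled its transcript. The size of this ratio therefore depends on the scale. Atf3, a stress-induced repressor and activator gene downstream of ATF4, was at 1.09 FPKM in the KD-titled library and 1.37 FPKM in the WT-titled library, with a log2 ratio of -0.30. Atf5, Ddit3 and Atf3 thus had gene values below those of the WT-titled library by less than 2-fold, although the direction of Ddit3 turned once unannotated transcripts were added (given with the transcripts). Genes on the opposite strand overlap Ddit3 (Mars, at 12.0 FPKM in the KD-titled library and 14.3 FPKM in the WT-titled library) and Atf5 (Nup62, at 0.203 and 1.10 FPKM), and reads in the overlaps may not have been separated. Another annotated protein-coding gene, also named Ddit3, overlaps Ddit3 on the same strand and is not among the listed genes.

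Of the genes of both regulatory subunits that direct protein phosphatase 1 to eIF2α, Ppp1r15b was lower in the KD-titled library and Ppp1r15a did not reach 2-fold. Ppp1r15b (ENSMUSG00000046062.5, chromosome 1 from 133131143 to 133139783, forward strand) had a log2 ratio of -2.54, a level 6.03-fold lower in the KD-titled library, and 1.496% of all genes had a lower ratio. Its only listed transcript, Ppp1r15b-001, is made of 2 exons, ends in a 3′-UTR of 2896 bases and stood at 2.11 FPKM in the KD-titled library and 11.3 FPKM in the WT-titled library, where it lay below the gene value. The unconfirmed gene Gm26616 lies on the opposite strand and shares 640 bases with this transcript, and it is not among the listed genes. Ppp1r15a (ENSMUSG00000040435.12, chromosome 7 from 45522916 to 45526268, reverse strand) was at 9.55 FPKM in the KD-titled library and 6.57 FPKM in the WT-titled library, a log2 ratio of 0.53 that did not reach 2-fold. It was the member with the highest ratio, and 88.6% of all genes had a lower one. Ppp1r15a stood at 4.52 times the level of Ppp1r15b in the KD-titled library and at 0.516 times in the WT-titled library. Summed over both genes, the level was 11.7 FPKM in the KD-titled library and 19.3 FPKM in the WT-titled library.

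The direction of Ppp1r15a rested on how transcripts were counted. The main transcript Ppp1r15a-001 was at 12.0 FPKM in the KD-titled library and 7.35 FPKM in the WT-titled library. Ppp1r15a-002 and Ppp1r15a-003 were both listed at 0 in the KD-titled library, and at 0.698 and 0.518 FPKM in the WT-titled library. Moreover, 2 unannotated transcripts of 4 exons on the same strand were listed at 0 in the KD-titled library, and at 1.64 and 2.97 FPKM in the WT-titled library. With these unannotated transcripts added to the gene value, Ppp1r15a was at 9.55 FPKM in the KD-titled library and 11.2 FPKM in the WT-titled library, a log2 ratio of -0.22. Gene values in these data are mostly scaled to the merged exon length, and transcript values to the length of the transcript. Such sums, here and below, therefore mix unlike scales, and their size is approximate.

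Next, the ER sensors were compared. Ern1 (ENSMUSG00000020715.9, chromosome 11 from 106394650 to 106487852, reverse strand), which encodes the kinase and endoribonuclease IRE1α, was at 0.758 FPKM in the KD-titled library and 1.66 FPKM in the WT-titled library. Its log2 ratio was -1.04, and that of its listed transcript of 22 exons, Ern1-001, was -1.09. The level was low, and with 1 FPKM in place of 0.1 FPKM added the log2 ratio was -0.60, under 2-fold.

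Atf6 (ENSMUSG00000026663.6, chromosome 1 from 170704674 to 170867771, reverse strand) was at 6.57 FPKM in the KD-titled library and 10.6 FPKM in the WT-titled library, a log2 ratio of -0.68. Its listed transcript Atf6-001 was at 8.30 FPKM in the KD-titled library and 13.4 FPKM in the WT-titled library. An unannotated transcript of 16 exons on the strand of Atf6 was at 1.32 FPKM in the KD-titled library and 4.99 FPKM in the WT-titled library, and another of 7 exons was at 1.12 and 1.98 FPKM. With both added, the log2 ratio of Atf6 was -0.95.

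Eif2ak3 (ENSMUSG00000031668.14, chromosome 6 from 70844515 to 70905245, forward strand), which encodes PERK, was at 4.73 FPKM in the KD-titled library and 4.52 FPKM in the WT-titled library. Its log2 ratio of 0.07 was the smallest in size of the 10 members. The listed transcript Eif2ak3-001, with 17 exons, was at 6.28 FPKM in the KD-titled library and 6.02 FPKM in the WT-titled library. The 3 sensors thus stood at log2 ratios of -1.04 (Ern1), -0.68 (Atf6) and 0.07 (Eif2ak3).

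Xbp1 (ENSMUSG00000020484.18, chromosome 11 from 5520659 to 5525893, forward strand) encodes the transcription factor that IRE1 activates by cutting an intron of 26 bases out of its mRNA. It was at 11.6 FPKM in the KD-titled library and 12.5 FPKM in the WT-titled library, a log2 ratio of -0.10. Its main transcript Xbp1-001 was at 14.0 FPKM in the KD-titled library and 16.2 FPKM in the WT-titled library. Xbp1-004 was at 3.24 and 2.09 FPKM in these libraries, and Xbp1-003 was under 1 FPKM in both.

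The intron is shown because it decides what the values of Xbp1 can tell. The line below gives chr11:5524259-5524324 of GRCm38 on the forward strand, read from the GENCODE M21 transcript, with the intron in capitals (5524279 to 5524304, in exon 4 of 5) and 20 bases of exon on either side.
Xbp1: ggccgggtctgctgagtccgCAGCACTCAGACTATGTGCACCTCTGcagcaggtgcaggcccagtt

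It was found as the pair of loop motifs, C, any base and GCAG, whose removal of 26 bases gave the longest reading frame, at 371 codons, against 267 codons without removal. The intron is present in 3 of 3 listed transcripts of Xbp1, and 0 of 4 annotated transcripts hold the joined sequence. The levels of Xbp1 therefore count the unspliced and the spliced mRNA together, and activity of IRE1 cannot be read from them.

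Across the transcript table, 15 transcripts of the 10 members were listed, and 7 members had 1 transcript each. Of the 12 transcripts that reached 1 FPKM in either library, 0 were at least 2-fold higher and 4 were lower in the KD-titled library, namely those of Atf4, Ppp1r15b and Ern1 and the minor Atf5-002. Of all 18988 transcripts at this level, 12.0% were higher and 12.2% were lower. Unannotated transcripts on the strand of a member numbered 6, over 4 members. Over Ddit3, 1 such transcript of 5 exons started 743 bases before the gene, and was at 10.2 FPKM in the KD-titled library and listed at 0 in the WT-titled library. With it added to the gene value, Ddit3 was at 13.1 FPKM in the KD-titled library and 3.69 FPKM in the WT-titled library, a log2 ratio of 1.81, so the direction of Ddit3 turned. The size of this ratio is not exact, because transcript and gene values differ in scale. The listed transcript Ddit3-001 alone was at 5.44 FPKM in the KD-titled library and 6.29 FPKM in the WT-titled library, above the gene values. Over Xbp1, 1 unannotated transcript of 4 exons was at 6.69 FPKM in the KD-titled library and 4.87 FPKM in the WT-titled library, and the log2 ratio with it added was 0.08.

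**Figure D3:**
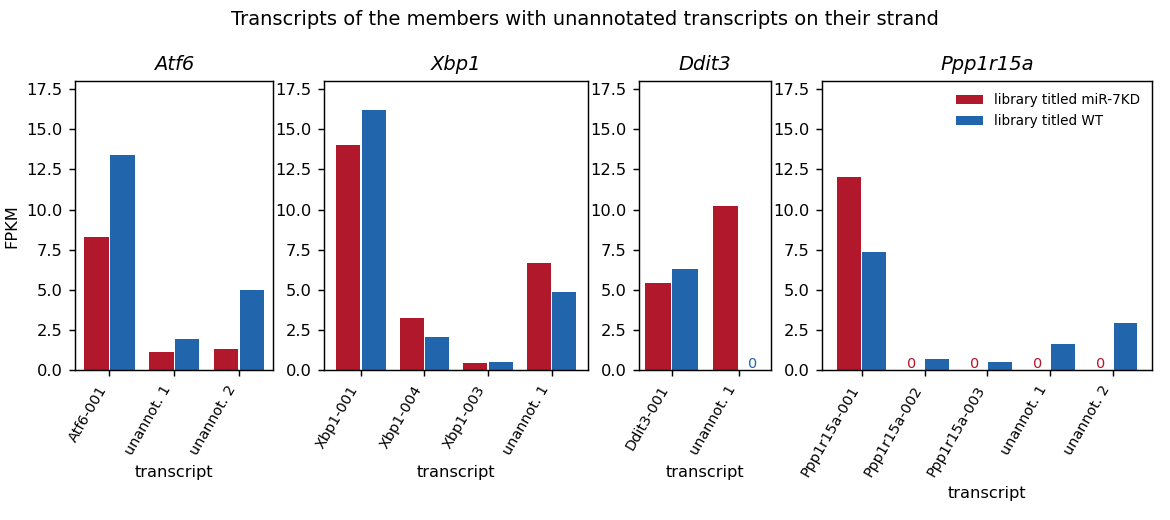
FPKM of the listed transcripts and of the unannotated transcripts on the same strand for Atf6, Xbp1, Ddit3 and Ppp1r15a, in the KD-titled library (red, left bars) and the WT-titled library (blue, right bars), with 0 printed where a transcript is listed at 0. The unannotated transcript over Ddit3 is at 10.2 FPKM in the KD-titled library and 0 in the WT-titled library, and both over Ppp1r15a are at 0 in the KD-titled library.

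The number of exons differed among the members, and it moved with how often genes were 2-fold different in these tables. Atf4 has 3 exons and Ppp1r15b has 2 in the main transcript. Among 1291 genes of 2 or 3 exons, 30.2% were at least 2-fold different in either direction and 14.1% were lower in the KD-titled library. Atf5 and Ppp1r15a, also of 3 exons, did not reach 2-fold. Among 6297 genes of 9 or more exons, 4.84% were at least 2-fold different and 2.29% were lower, and Ern1, Atf6 and Eif2ak3 belong to this class. The part of exon number in the differences of Atf4 and Ppp1r15b was not tested.

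The 5′ ends of the members were compared with those of other genes. Short reading frames before the coding sequence are what lets mRNAs such as Atf4 escape the block of translation. In the main transcript, 8 of the 10 members held at least 1 ATG before the start codon, against 51.1% of 11587 genes with an annotated 5′-UTR. There were 3 in Atf4, Ppp1r15b, Ppp1r15a and Eif2ak3, 2 in Atf5 and Ddit3, 1 in Atf3 and Xbp1, and 0 in Atf6 and Ern1. The 5′-UTRs of the members had a median length of 268 bases, against 178 bases over these genes. The 5′-UTRs of Ppp1r15b and Atf4 were the longest of the 10, at 604 and 594 bases.

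**Figure D4:**
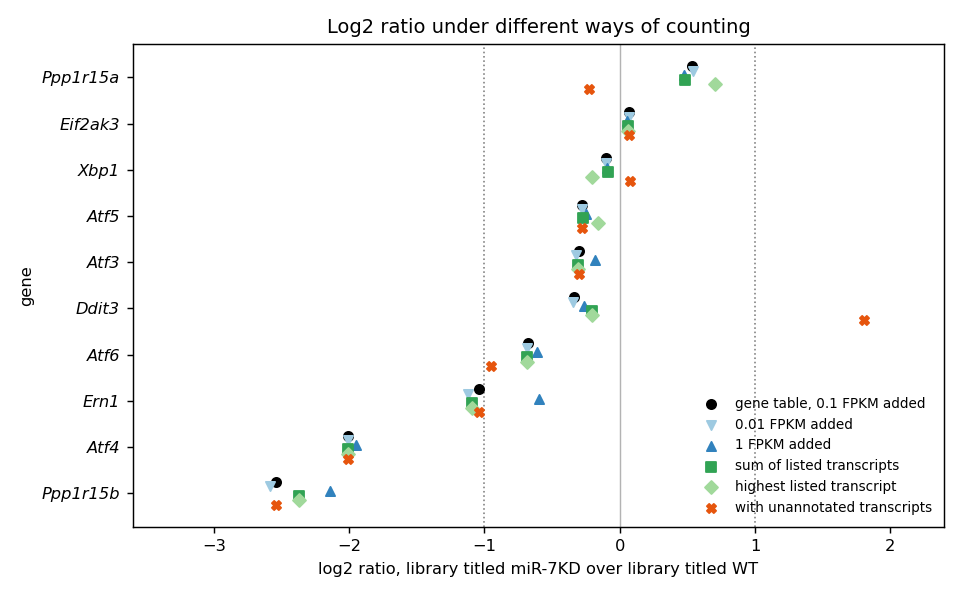
Log2 ratio (KD-titled over WT-titled library) of each member with 0.1, 0.01 or 1 FPKM added to the gene value, with the sum of listed transcripts, with the highest listed transcript, and with unannotated transcripts of the same strand added; dotted lines mark 2-fold. Ppp1r15b stays between -2.59 and -2.14 and Atf4 between -2.01 and -1.95, while Ddit3 moves to 1.81 and Ppp1r15a to -0.22 with unannotated transcripts. The values with unannotated transcripts add transcript FPKM to gene FPKM, which are scaled to unlike lengths.

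The wider pathway was described by 8 lists of 93 genes, of which 91 were listed and 85 reached 1 FPKM. Of these 85, 4 were at least 2-fold higher and 3 were lower in the KD-titled library, beside 6.01% and 5.58% of all genes, and their median log2 ratio was -0.05. The transcription factor genes Cebpb and Cebpg, and Eif2s3x, differed most among them.

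Genes activated by ATF4 and CHOP had 1 higher and 3 lower of 24, with a median log2 ratio of -0.07. Cebpb, which encodes a partner of ATF4 at composite elements, was listed at 0 in the KD-titled library and at 13.2 FPKM in the WT-titled library, and it is a gene of 1 exon, a class in which 54.1% of 185 genes were at least 2-fold different. Cebpg, which encodes a related partner, was at 6.71 FPKM in the KD-titled library and 0.417 FPKM in the WT-titled library. It has 2 exons, and 30.2% of genes of 2 or 3 exons were at least 2-fold different. Nupr1, a stress-induced chromatin protein gene, was at 1.56 FPKM in the KD-titled library and 4.15 FPKM in the WT-titled library. Its only listed transcript was at 4.70 FPKM in the KD-titled library and 9.30 FPKM in the WT-titled library, a log2 ratio of -0.97 that is under 2-fold. Psat1, an enzyme gene of serine synthesis, was at 12.1 FPKM in the KD-titled library and 24.7 FPKM in the WT-titled library, a log2 ratio of -1.02. Its main transcript Psat1-001 had a log2 ratio of -0.71, under 2-fold, whereas the minor Psat1-002 was lower by more than 2-fold in the KD-titled library. The most abundant genes of this list lay close to 0, with the transfer RNA ligase gene Nars at 48.4 and 48.7 FPKM, the mTOR inhibitor gene Ddit4 at 47.7 and 47.1 FPKM and the amino acid transporter gene Slc3a2 at 28.2 and 29.2 FPKM in the KD- and WT-titled libraries.

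Among the 8 genes of eIF2 and of its exchange factor eIF2B, 1 was higher and 0 were lower, with a median of 0.03. Eif2s3x, which encodes the γ subunit of eIF2, was at 42.8 FPKM in the KD-titled library and 11.6 FPKM in the WT-titled library. Eif2s2, the β subunit gene, was at 18.3 and 16.7 FPKM, and Eif2b2 was at 13.1 and 18.5 FPKM in these libraries. None of the 3 other eIF2α kinase genes reached 2-fold, with Eif2ak1 at 6.48 and 7.63 FPKM, Eif2ak4 at 3.67 and 3.93 FPKM and the interferon-inducible Eif2ak2 at 2.74 and 1.77 FPKM in the KD- and WT-titled libraries.

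ER chaperones and folding enzymes, which ATF6 and XBP1 turn on, had 1 higher and 0 lower of 18, with a median of -0.02. The calcium-binding chaperone gene Canx was at 80.1 FPKM in the KD-titled library and 39.8 FPKM in the WT-titled library, just past 2-fold at a log2 ratio of 1.01. Its main transcript Canx-001 had a log2 ratio of 0.97, under 2-fold, and the minor Canx-201 one of 1.33. Calr was at 94.5 and 90.04 FPKM and Hsp90b1 at 68.6 and 63.8 FPKM in the KD- and WT-titled libraries. Genes of ER-associated degradation and export had 1 higher and 0 lower of 16, with a median of -0.02. The higher gene, Derl2, which encodes a channel component, was at 3.81 FPKM in the KD-titled library and 1.71 FPKM in the WT-titled library, while the ATPase gene Vcp was at 45.8 and 48.8 FPKM and Os9 at 30.5 and 31.3 FPKM in these libraries.

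Of the ATF6 family and its proteases, 0 of 7 genes reached 2-fold in either direction, with a median of -0.16. Atf6b, the paralog of Atf6, was at 11.2 FPKM in the KD-titled library and 17.5 FPKM in the WT-titled library, and the site-1 protease gene Mbtps1 was at 16.3 and 21.4 FPKM. Creb3, which encodes another membrane-bound factor that is cut in the same way, was at 15.1 FPKM in the KD-titled library and 12.9 FPKM in the WT-titled library. Of 5 listed genes of the IRE1 branch, 0 reached 2-fold, with a median of -0.08. Rtcb, which encodes the ligase that joins the cut ends of Xbp1 mRNA, was at 44.1 FPKM in the KD-titled library and 46.7 FPKM in the WT-titled library. Tmbim6, which encodes an inhibitor of IRE1, was at 62.8 FPKM in the KD-titled library and 80.7 FPKM in the WT-titled library, and Bloc1s1, whose mRNA IRE1 degrades, was at 19.4 and 12.6 FPKM. Of 4 cell death genes of the response at 1 FPKM or more, 0 reached 2-fold, with a median of 0.32 and with Bax at 11.0 and 14.2 FPKM, Bak1 at 5.81 and 3.39 FPKM and Bbc3 at 2.95 and 3.22 FPKM in the KD- and WT-titled libraries.

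**Figure D5:**
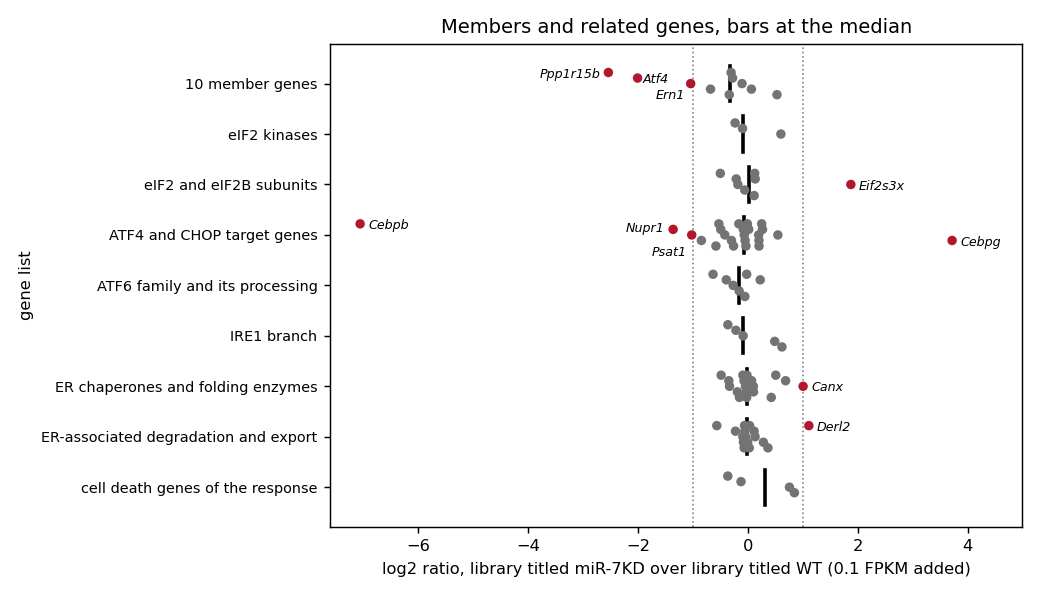
Log2 ratio (KD-titled over WT-titled library, 0.1 FPKM added) of the 10 members and of each related gene at 1 FPKM or more, by list, with black bars at the median, dotted lines at 2-fold and named red points past it. The medians of the members and of the 8 lists lie between -0.32 and 0.32, and Cebpb, listed at 0 in the KD-titled library, has no ratio without the 0.1 FPKM added.

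The tissue and both libraries were checked with marker genes. FPKM of all genes summed to 164811 in the KD-titled library and 162981 in the WT-titled library, and the sources used here give no read counts, so no counting error can be stated. Neuron markers summed to 521 and 479 FPKM in the KD- and WT-titled libraries, and oligodendrocyte markers to 431 and 403 FPKM. Erythroid markers, genes of red blood cells, summed to 733 and 793 FPKM in these libraries, above the neuron markers. Choroid plexus markers summed to 397 and 408 FPKM, and the 2 listed of 5 neutrophil markers to 14.2 and 10.2 FPKM. None of 8 photoreceptor markers of retina, which the extraction protocol in the labels names, was listed, and 5 of 5 neuron markers were. Markers past 2-fold were the astrocyte gene S100b (35.4 and 121 FPKM in the KD- and WT-titled libraries), the microglial gene Cx3cr1 (0.0172 and 3.03 FPKM) and the endothelial gene Cldn5 (24.7 FPKM in the KD-titled library and listed at 0 in the WT-titled library). The other 4 markers of each of these 3 cell types did not reach 2-fold. Astrocyte markers summed to 394 and 508 FPKM, microglial markers to 19.6 and 20.6 FPKM and endothelial markers to 44.7 and 17.7 FPKM in the KD- and WT-titled libraries. Most of the difference in the astrocyte sum came from S100b, a gene of 3 exons. Cldn5, a gene of 1 exon, made up most of that in the endothelial sum. Cx3cr1 is a gene of 2 exons. The part of cell makeup in the differences of the stress response genes was not tested.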

How the data were processed

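The authors deposited FPKM values per protein-coding gene, per annotated transcript and per unannotated transcript, and a further table that sums unannotated transcripts was not used. Bowtie 0.12.2 and the build mm8 are named in the submitters' processing notes, whereas the program behind the FPKM values is not given in the sources consulted. The listed positions fit GRCm38, where 13362 of 13381 genes lie over their namesake in GENCODE M21. In 272 genes with every annotated transcript listed, 94.5% of gene values equalled the sum of transcript FPKM times length over the merged exon length within 1%, so a gene can lie below its main transcript. Columns were matched to samples by animal number. Log2 ratios were taken with 0.1 FPKM added, which understates changes of low genes, and 2-fold counts used genes at 1 FPKM or more; the code was tested on simulated data. No test was made. Alternatives covered the value added, scaling, minimum level, threshold, genes at 0, transcript sums and unannotated transcripts. The members, the gene lists and the rule for named genes (every member, and of each list the genes past 2-fold and the 3 most abundant) were chosen with earlier results of these data known. The values of 1 gene that this rule takes are not reported here. Near-identical copies were searched with BLAST 2.17.0 (90% identity over 200 bases) among GENCODE M21 transcripts, of which exon numbers and UTRs are those of the main listed transcript. Python 3.11.15, numpy 2.4.6, pandas 2.3.3 and matplotlib 3.10.9 were used. PCR, staining and Western blot data were not analysed here.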

Additional observations from a re-analysis of the deposited data

Results flagged for a closer look

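Unannotated transcripts were not part of the gene values, and 2 of those on the strand of a member were higher in the KD-titled library than in the WT-titled library. The one over Ddit3, from 127290031 to 127296291 of chromosome 10 with 5 exons, was at 10.2 FPKM in the KD-titled library and listed at 0 in the WT-titled library. Of all 10238 unannotated transcripts, 12.7% were listed at 0 only in the WT-titled library and 9.15% only in the KD-titled library. The one over Xbp1, from 5520955 to 5525909 of chromosome 11 with 4 exons, was at 6.69 FPKM in the KD-titled library and 4.87 FPKM in the WT-titled library.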

How the results depend on the processing

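Of 60 values of the members under alternatives, 56 kept their sign and their side of 2-fold. This count overstates stability, because part of the values could hardly change. Only 4 members have unannotated transcripts on their strand, and 7 members have 1 listed transcript, so that its value and the sum are the same. With unannotated transcripts of the same strand added, the log2 ratio reversed to 1.81 in Ddit3, -0.22 in Ppp1r15a and 0.076 in Xbp1, and 1 member was at least 2-fold higher in place of 0. These sums add transcript FPKM to gene FPKM, which are scaled to unlike lengths, so their size is approximate. With 1 FPKM added to each value, Ern1 was at -0.60, 2 related genes were higher in place of 4 and 2 lower in place of 3, and 519 of all genes were higher and 479 lower. With the sum of listed transcripts, 5 related genes were higher and 2 lower. With a 3-fold threshold, 392 of all genes were higher and 367 lower, and 2 related genes were higher and 1 lower. With a minimum level of 5 FPKM, 421 of all genes were higher and 390 lower. The use of the highest listed transcript was added after the data were seen. Rescaling moved every log2 ratio by 0.01, since the median over all genes was -0.01. No paired analysis was possible because there is 1 library per title, and for the same reason no library could be left out. Depth per library is unknown, which limits what can be said of Ern1, Atf3 and other genes near 1 FPKM.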

Other observations

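The level of Atf4 was lower in the KD-titled library. Of 24 genes that ATF4 and CHOP are known to activate, 1 was at least 2-fold higher and 3 were lower in that library. Over all genes, 6.01% were higher and 5.58% were lower. Among the 3, Psat1 and Nupr1 were under 2-fold in their main listed transcripts, and Cebpb has 1 exon. The list had a median log2 ratio of -0.07. Of its genes of amino acid supply, those given next were chosen after their values were seen. Asns, which encodes asparagine synthetase, was at 27.8 FPKM in the KD-titled library and 29.4 FPKM in the WT-titled library. The transfer RNA ligase gene Aars was at 20.9 and 21.4 FPKM, and Shmt2, a mitochondrial enzyme gene of serine and glycine metabolism, at 11.3 and 11.8 FPKM in these libraries. Phgdh, the first enzyme gene of serine synthesis, was at 18.01 FPKM in the KD-titled library and 15.6 FPKM in the WT-titled library, whereas Psat1, of the same route, was at 12.1 and 24.7 FPKM. Aldh18a1, an enzyme gene of proline synthesis, was at 3.35 FPKM in the KD-titled library and 6.09 FPKM in the WT-titled library. The amino acid transporter gene Slc7a5 was at 11.7 FPKM in the KD-titled library and 13.1 FPKM in the WT-titled library, and Slc7a11, the cystine transporter gene, at 2.21 and 3.22 FPKM. By gene values, the ratios of these chosen genes ran from slightly above 1 to 2-fold lower in the KD-titled library, a range set by the choice. Other genes of the list lay on either side. Gpt2 was at 5.67 and 4.69 FPKM and Vldlr at 5.23 and 3.54 FPKM in the KD- and WT-titled libraries, whereas Cars was at 6.11 and 7.53 FPKM and Sesn2 at 4.19 and 5.63 FPKM. Pck2 was at 6.78 and 5.87 FPKM and Cth at 1.19 and 0.979 FPKM, whereas Mthfd2 was at 2.96 and 3.56 FPKM in these libraries. Chac1, an enzyme gene of glutathione breakdown, was at 3.32 FPKM in the KD-titled library and 5.02 FPKM in the WT-titled library. ATF4 protein was not measured in these data.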
